A study of Mus musculus with 6 samples.

Results

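Erythroblastic island macrophages are the central cells around which red cell precursors mature in the marrow. Their genes were examined here in bone marrow of anaemic mice shortly after an injection of erythropoietin. The 10 genes were Siglec1, Vcam1, Cd163, Adgre1, C1qa, C1qb, C1qc, Mrc1, Spic and Timd4. All array probes whose accession belongs to one of them in RefSeq were taken, which gave 14 of the 41174 gene probes, with 2 probes each for Siglec1, Vcam1, Adgre1 and Spic. All 10 genes were among the 14853 genes tested. The mice were ISAM, a model of anaemia from lack of erythropoietin. Their genotype is Epo-/-::3.3K-Epo3'-Tg458 on a mixed strain, so every animal lacks its own Epo gene and carries an Epo transgene. As background, this transgene is known to be active in the liver of young animals and not in the adult kidney, where erythropoietin is normally made. All animals were males of 10 weeks, and marrow cells came from the femurs, with no sorting step named. The rHuEPO group received recombinant human erythropoietin at 3000 U/kg into the peritoneal cavity 6 h before collection and has 3 arrays. The control group has 3 arrays, namely 2 of mice given PBS 6 h before collection (PBS 1 and PBS 2) and 1 of an untreated mouse. No wild-type or non-anaemic mouse was analysed here. Whether each numbered replicate is a separate mouse is not stated in the labels, so the tests measure the spread between these samples, which may be partly technical.

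In an erythroblastic island, erythroblasts attach to a macrophage that supplies iron and signals and engulfs the nuclei they expel. Vcam1 on the macrophage binds the integrin made of Itga4 and Itgb1 on erythroblasts, and Siglec1 (sialoadhesin, CD169) binds sialylated surface molecules. Cd163 takes up haemoglobin bound to haptoglobin, Mrc1 (the mannose receptor, CD206) takes up glycoproteins, and Timd4 (Tim-4) binds phosphatidylserine on dying cells. C1qa, C1qb and C1qc encode the chains of complement C1q. Adgre1 encodes an adhesion receptor that serves as the usual surface label of mouse macrophages, and Spic encodes a transcription factor needed for macrophages that recycle red cell iron. None of these genes belongs to island macrophages alone. Vcam1 is also made by stroma and endothelium, Adgre1 by eosinophils and monocytes, and C1q by macrophages of many tissues. In marrow RNA of all cells together, fewer cells of a type and less RNA per cell cannot be told apart.

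The promoters of C1qb, C1qc and Mrc1, which averaged higher after rHuEPO, and of Timd4, which averaged lower, are shown so that genes of both directions stand beside each other. RefSeq windows of 300 bases (GRCm38.p6) were found for 6 of the 10 genes, the other 2 being those of Cd163 and Spic. The C1q genes are neighbours on chromosome 4 in the order C1qb, C1qc, C1qa, between Ephb2 and Epha8. The windows of C1qb and C1qc lie on the minus strand at chr4:136886151-136886450 and chr4:136892865-136893164. Those of Mrc1 and Timd4 lie on the plus strand at chr2:14229164-14229463 and chr11:46810549-46810848. Capitals mark the motif letters searched on both strands, which are GAGGAA (the PU box, bound by the factor family of PU.1 and Spi-C), GAAANNGAA (interferon response element) and TTCNNNGAA (STAT palindrome).
C1qb: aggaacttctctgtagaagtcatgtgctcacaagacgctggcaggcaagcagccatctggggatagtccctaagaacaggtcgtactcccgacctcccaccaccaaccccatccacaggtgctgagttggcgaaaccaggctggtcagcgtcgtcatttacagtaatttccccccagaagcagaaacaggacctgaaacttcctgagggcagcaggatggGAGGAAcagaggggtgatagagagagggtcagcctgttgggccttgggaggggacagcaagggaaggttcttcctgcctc
C1qc: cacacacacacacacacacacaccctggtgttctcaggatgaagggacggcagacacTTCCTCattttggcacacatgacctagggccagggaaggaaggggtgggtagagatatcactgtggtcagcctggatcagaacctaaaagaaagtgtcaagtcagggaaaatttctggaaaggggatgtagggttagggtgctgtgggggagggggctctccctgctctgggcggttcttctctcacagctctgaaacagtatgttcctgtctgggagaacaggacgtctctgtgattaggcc
Mrc1: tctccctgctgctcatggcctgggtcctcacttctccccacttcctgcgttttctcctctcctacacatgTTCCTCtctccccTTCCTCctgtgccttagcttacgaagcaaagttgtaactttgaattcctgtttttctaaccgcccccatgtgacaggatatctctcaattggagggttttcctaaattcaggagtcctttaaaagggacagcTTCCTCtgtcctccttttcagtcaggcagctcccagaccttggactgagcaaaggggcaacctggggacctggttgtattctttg
Timd4: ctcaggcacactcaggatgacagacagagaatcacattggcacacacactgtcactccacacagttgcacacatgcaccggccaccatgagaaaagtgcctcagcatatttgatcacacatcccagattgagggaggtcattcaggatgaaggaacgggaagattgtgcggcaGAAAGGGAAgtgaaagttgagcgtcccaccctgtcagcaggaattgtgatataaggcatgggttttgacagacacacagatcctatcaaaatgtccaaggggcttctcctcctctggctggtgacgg
PU box letters stood in 3 of the 6 windows and in 28.3% of all 32851 promoter windows of this length. C1qb holds them once on the gene's own strand, 30 to 25 bases before the gene start. C1qc holds them once on the opposite strand, where they read TTCCTC in the printed sequence, and Mrc1 holds them 3 times on that strand. The interferon response element stood in 1 of the 6 windows, that of Timd4, and in 8.56% of all windows. The STAT palindrome stood in 0 of the 6 and in 8.30% of all. No marked match overlapped another, and a match of letters is no evidence of binding.

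Levels are given on a log2 scale on which each array's 75th percentile of processed signals is 0. They compare arrays for 1 probe and not 1 gene with another, since probes differ in brightness. Each change is the rHuEPO mean minus the control mean on this log2 scale, with the standard error (SE) from limma and an adjusted p by Benjamini-Hochberg over all tested genes. The 75th percentile of the arrays lay between 221 and 264 signal units. A share of 46.2% to 46.6% of spots was well above background on the rHuEPO arrays, against 48.6% to 50.5% on the control arrays. Array pairs correlated at 0.964 to 0.991 across genes. Over all genes the median change was -0.015.

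None of the 10 macrophage genes passed the test at an adjusted p of 0.05. In the whole comparison 0.0673% of the genes were called higher (10 genes) and 0% lower. The values of 8 members averaged higher on the rHuEPO arrays and those of 2, Adgre1 and Timd4, averaged lower, while 47.3% of all tested genes had a change above 0. The median change of the 10 was 0.43, with single changes between -0.54 for Timd4 and 0.75 for Siglec1. Timd4 was well above background on 0 of the 3 rHuEPO arrays and was tested only because of its control arrays, so its lower value is given as a bound. Of the 9 other members none had an unadjusted limma p under 0.05, which 4.96% of all genes had. Siglec1 and C1qa were higher on every rHuEPO array than on every control array, a pattern that 5.01% of all genes showed. Timd4 was lower on every rHuEPO array than on every control array, as were 5.39% of all genes, but the filter let it in through the controls and nothing is read from this. The standard errors of the members ran between 0.21 and 0.38 and the intervals of the 9 members other than Timd4 included 0. The plot of the genes on each array shows these values after each gene's mean was taken away.

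**Figure D1:**
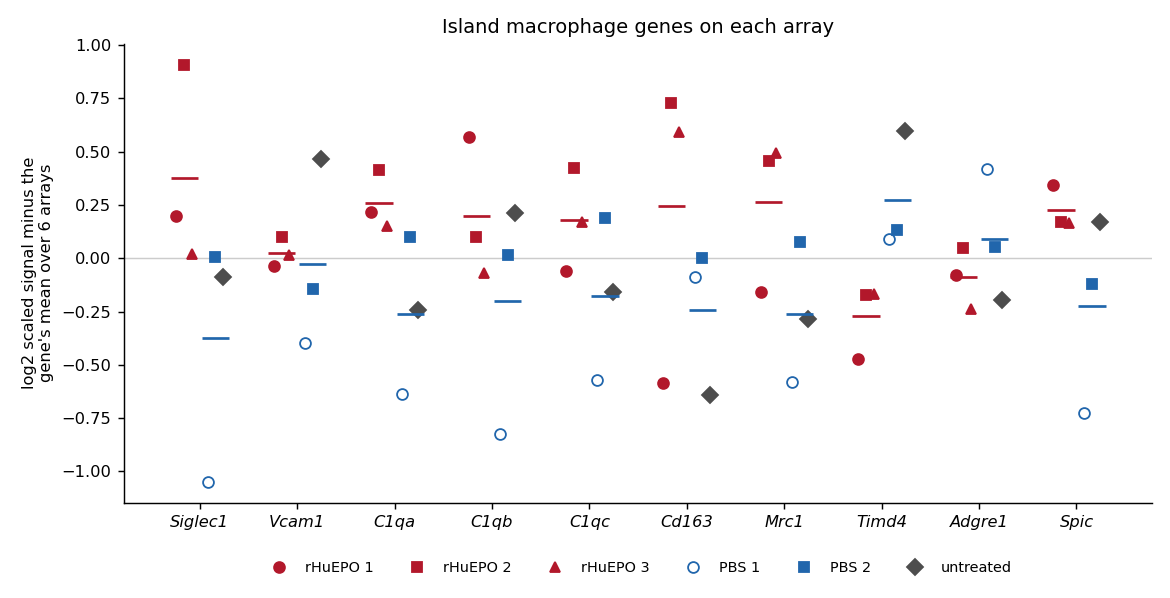
Log2 scaled signal minus the gene's mean over 6 arrays (vertical axis) for the 10 genes (horizontal axis). Red symbols are the 3 rHuEPO arrays, blue symbols the PBS arrays and the grey diamond the untreated array, and short lines are the means of the 3 rHuEPO and the 3 control arrays. The open circle, PBS 1, is the lowest point for 7 of the genes and the highest for Adgre1.

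The sialoadhesin gene Siglec1 had the largest change of the 10. It stood at -2.56, -1.85 and -2.74 on rHuEPO 1, 2 and 3, against -3.81 and -2.75 on PBS 1 and 2 and -2.85 on the untreated array. The rHuEPO 2 array was the highest and PBS 1 the lowest, and the arms were set apart by only 0.013, between rHuEPO 3 and PBS 2. The change was 0.75 ± 0.35 (SE; 1.68-fold, 95% interval -0.08 to 1.58, limma adjusted p = 1.00). Siglec1 is dim on this array. Its signals were 44.7, 71.4 and 33.7 on the rHuEPO arrays, against 15.7, 36.3 and 35.7 on PBS 1, PBS 2 and the untreated array, and that of PBS 1 was not well above background. Without PBS 1 the change was 0.41, with an interval of -0.32 to 1.15. The second Siglec1 probe was well above background only on the untreated array and was not tested. Its mean ran the other way, by -0.62.

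The adhesion gene Vcam1 did not separate the arms. It stood at 3.05, 3.19 and 3.10 on the rHuEPO arrays, against 2.69, 2.94 and 3.55 on PBS 1, PBS 2 and the untreated array. The rHuEPO arrays lay close together (SD 0.069, n = 3) inside the spread of the controls (SD 0.44, n = 3), of which the untreated array was the highest of all 6 and PBS 1 the lowest. The change was 0.05 ± 0.24 (SE), with a 95% interval of -0.52 to 0.63, and it was -0.13 without PBS 1. The second probe, well above background on all 6 arrays, gave 0.11 ± 0.40 (SE) and had the same lowest and highest arrays.

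The 3 chains of complement C1q lay higher on average after rHuEPO but none passed the test. C1qa stood at 3.01, 3.20 and 2.94 on the rHuEPO arrays, against 2.15, 2.89 and 2.54 on PBS 1, PBS 2 and the untreated array. C1qb stood at 2.54, 2.07 and 1.90 on the rHuEPO arrays, against 1.15, 1.99 and 2.18 on PBS 1, PBS 2 and the untreated array. C1qc stood at 3.46, 3.94 and 3.69 on the rHuEPO arrays, against 2.95, 3.70 and 3.36 on PBS 1, PBS 2 and the untreated array. For all 3 chains PBS 1 was the lowest array, and only for C1qa did the arms not overlap, by a gap of 0.051. The changes were 0.52 ± 0.23 (SE) for C1qa, 0.40 ± 0.31 for C1qb and 0.36 ± 0.25 for C1qc, with a limma adjusted p of 1.00 for each. The interval of C1qa was -0.01 to 1.05 and that of C1qb, the widest of the chains, -0.34 to 1.13. Without PBS 1 the changes were 0.33, 0.087 and 0.16 in the same order of genes. The chains did not follow each other closely within the rHuEPO arm, since C1qb was highest on rHuEPO 1, where C1qc was lowest of the 3. Averaged over the chains, after each gene's mean was taken away, rHuEPO 1, 2 and 3 stood at 0.24, 0.31 and 0.084, against -0.68, 0.10 and -0.064 on PBS 1, PBS 2 and the untreated array. The average of PBS 2 thus exceeded that of rHuEPO 3.

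Among the uptake receptors, Cd163 and Mrc1 averaged higher, while Timd4, described below, allows only a bound. Cd163 stood at -0.34, 0.97 and 0.83 on the rHuEPO arrays, against 0.15, 0.24 and -0.40 on PBS 1, PBS 2 and the untreated array. The low values were those of rHuEPO 1 and the untreated array, which share a slide, and the arms overlapped widely. The change of Cd163 was 0.49 ± 0.38 (SE; 95% interval -0.39 to 1.37), the least precise of the 10. Mrc1 stood at -0.47, 0.14 and 0.18 on the rHuEPO arrays, against -0.89, -0.23 and -0.60 on PBS 1, PBS 2 and the untreated array. The rHuEPO 2 and 3 arrays were the highest and rHuEPO 1 lay between PBS 2 and the untreated array. The change of Mrc1 was 0.53 ± 0.26 (SE; 95% interval -0.08 to 1.14).

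Timd4, the phosphatidylserine receptor, was near the limit of the array. It stood at -4.10, -3.80 and -3.80 on the rHuEPO arrays, against -3.54, -3.50 and -3.03 on PBS 1, PBS 2 and the untreated array. Every rHuEPO array was below every control array, and the probe was well above background on 0 of the 3 rHuEPO arrays and on all 3 control arrays. The rHuEPO level is therefore only a bound. Set against the lowest signals that were well above background, this bound lay 1.09-fold below the control mean. The filter let Timd4 in only through its control arrays, so no fall after rHuEPO is read from its values. The measured means were -3.90 ± 0.18 after rHuEPO and -3.36 ± 0.28 in controls (SD, n = 3 each). The difference of these means was -0.54, and the limma adjusted p was 0.939.

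Adgre1 and Spic, the surface label and the iron-recycling transcription factor, averaged on opposite sides of 0, with intervals that both included 0. Adgre1 stood at 3.42, 3.55 and 3.26 on the rHuEPO arrays, against 3.92, 3.55 and 3.30 on PBS 1, PBS 2 and the untreated array. The arms overlapped, with PBS 1 above all other arrays, and the change was -0.18 ± 0.21 (SE; 95% interval -0.68 to 0.31). Without PBS 1 the change of Adgre1 was -0.017. The second Adgre1 probe was well above background on 2 of 6 arrays and was not tested. Its mean ran the other way, by 0.096. Spic stood at 1.39, 1.22 and 1.22 on the rHuEPO arrays, against 0.32, 0.93 and 1.22 on PBS 1, PBS 2 and the untreated array. The untreated array lay within the narrow rHuEPO range and the PBS arrays below it. The change of Spic was 0.45 ± 0.25 (SE; 95% interval -0.14 to 1.04), and its second probe gave 0.56 ± 0.29.

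**Figure D2:**
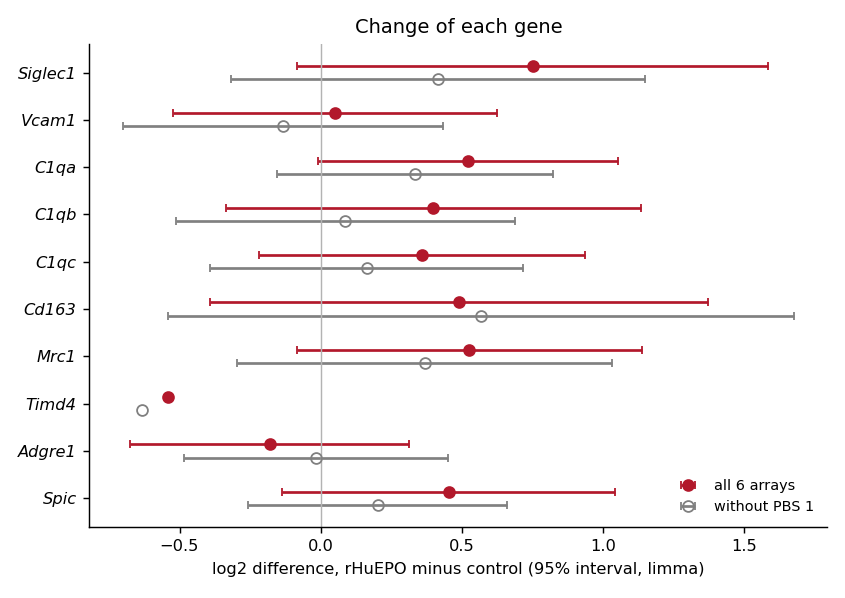
Change of each gene (horizontal axis, log2 difference, rHuEPO minus control) with its 95% interval from limma, from all 6 arrays (filled) and without PBS 1 (open). Timd4 has no interval because its rHuEPO signals were not well above background. The intervals of the 9 other genes include 0. Without PBS 1 the changes of Siglec1, C1qa, C1qb, C1qc, Mrc1, Spic and Adgre1 lie nearer to 0, those of Cd163 and Timd4 lie farther from it and that of Vcam1 is on its other side.

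The median change depended on a single control array, PBS 1. That array was the lowest of the 6 arrays for 7 of the 10 members, whereas 16.1% of all tested genes were lowest there. The PBS 2 array exceeded PBS 1 by a median of 0.63 over the members, against a median of -0.035 over all genes. For 8 of the 10 members this gap between the PBS arrays was larger in size than the change between the arms, as it was for 66.7% of all genes. The control SD was larger than the rHuEPO SD for 8 of the 10, and for 58.0% of all genes. Without PBS 1 the median change of the members was 0.18, in place of 0.43. Leaving out any other single array gave between 0.34 and 0.52.

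Markers of other marrow cells differed on PBS 1 as well. All 7 tested B cell markers were lowest there. Their median around each gene's mean was 0.19, -0.34 and -0.25 on rHuEPO 1, 2 and 3, against -1.40, 0.95 and 0.87 on PBS 1, PBS 2 and the untreated array. Their summed signals, in multiples of the array's 75th percentile, spanned 65.7 to 83.1 after rHuEPO and 33.7 to 150.8 in controls. Among erythroid markers 7 of 10 were lowest on PBS 1, as were the 7 macrophage genes. In contrast, 8 of 12 monocyte and 8 of 9 neutrophil markers were highest on PBS 1, against 25.7% of all tested genes. Summed neutrophil markers spanned 1862 to 2431 after rHuEPO and 1911 to 2538 in controls, and summed monocyte markers 507 to 551 after rHuEPO and 463 to 729 in controls. The part of the cell make-up of PBS 1 in the changes of the macrophage genes was not tested.

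**Figure D3:**
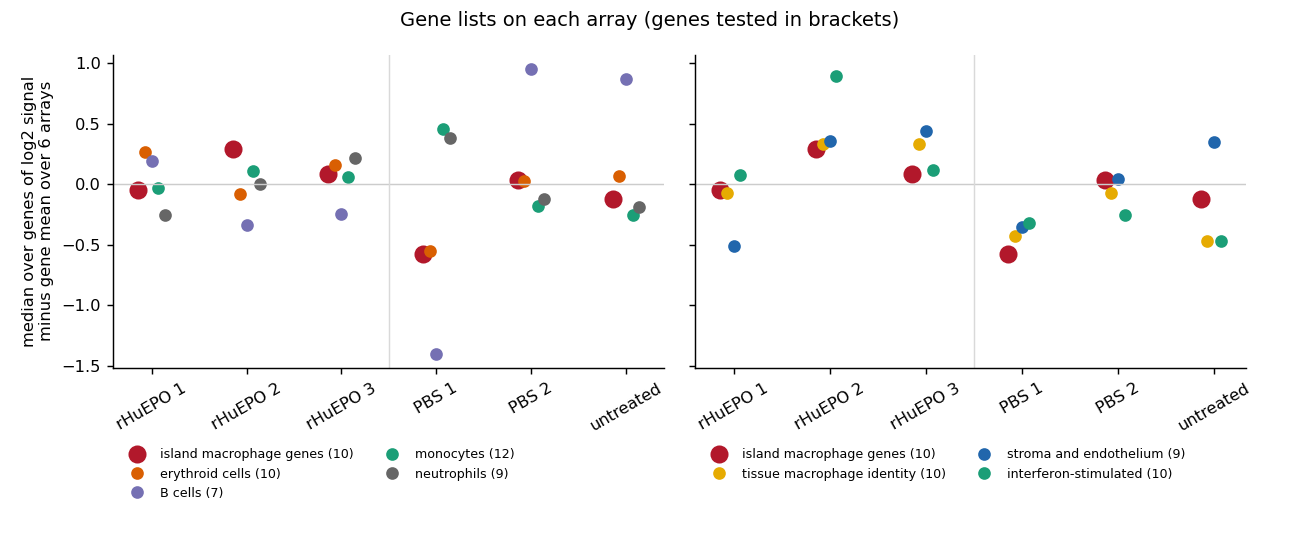
Median over the tested genes of each list of the log2 signal minus the gene's mean over 6 arrays (vertical axis), for each array (horizontal axis, rHuEPO left of the grey line and controls right of it). On PBS 1 the macrophage genes stand at -0.58 with the erythroid list near them at -0.55, the B cell list at -1.40, and the monocyte and neutrophil lists at 0.45 and 0.38.

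The arrays lay on 2 slides, each scanned in a session of its own, and both slides held both arms. On slide 1 rHuEPO 1 exceeded the untreated array for 8 of the 10 members, with a median of 0.12. On slide 2 the mean of rHuEPO 2 and 3 exceeded that of PBS 1 and PBS 2 for 8 of the 10, with a median of 0.52. Over all genes the medians were 0.0048 and -0.019. C1qa differed alike on both slides, by 0.46 and 0.55, and C1qb by 0.36 and 0.42. Siglec1 differed by 0.29 on slide 1 and 0.98 on slide 2, and Cd163 by 0.06 and 0.70. Vcam1 changed sign, at -0.50 on slide 1 and 0.33 on slide 2, as did Adgre1 at 0.12 and -0.33. Timd4 was lower on both, by -1.07 and -0.28, but the filter let it in through the controls and nothing is read from this. Slide 1 offers 1 array per arm and its only control was untreated, so slide and kind of control cannot be told apart there. With slide as a block no member passed, and among the 9 members other than Timd4 the lowest adjusted p from limma was 0.393, for Cd163.

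**Figure D4:**
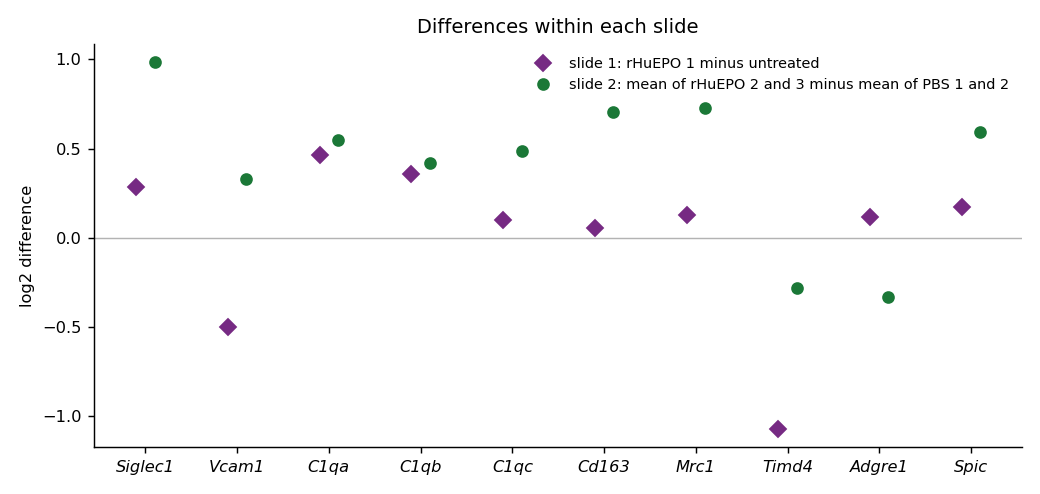
Log2 difference between rHuEPO and control arrays (vertical axis) within slide 1 (diamonds, rHuEPO 1 minus untreated) and slide 2 (circles, mean of rHuEPO 2 and 3 minus mean of PBS 1 and 2) for each gene. Both differences lie above 0 for Siglec1, C1qa, C1qb, C1qc, Cd163, Mrc1 and Spic, both below 0 for Timd4, and on opposite sides of 0 for Vcam1 and Adgre1.

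Other genes linked to the island macrophage were followed in 4 lists, and none of their genes passed the test in either direction. Of 10 tested genes of tissue macrophage identity 8 averaged higher after rHuEPO, with a median change of 0.29. The median was 0.042 on slide 1 and 0.45 on slide 2. Their summed signals spanned 32.1 to 45.8 after rHuEPO, inside the 26.6 to 53.1 of the controls. Vsig4, a complement receptor of resident macrophages, was well above background on 0 of the 6 arrays. Clec4n, the receptor Dectin-2, stood at 0.15, 0.76 and 0.10 on the rHuEPO arrays, against -1.07, -0.56 and -0.73 on PBS 1, PBS 2 and the untreated array. Its change was 1.12 ± 0.25 (SE), with a limma adjusted p of 0.506. Nr1h3, the sterol-sensing nuclear receptor LXR alpha, also lay higher on all 3 rHuEPO arrays than on any control array, with a change of 1.12 ± 0.29 and an adjusted p of 0.671 from limma. These were the only 2 of the 10 whose arms did not overlap, and 5.01% of all genes were likewise higher on every rHuEPO array. Lyve1, a hyaluronan receptor of perivascular macrophages, ran the other way at -0.80 ± 0.36.

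The genes for uptake of dying cells and nuclei showed no common direction. Of 10 tested 6 averaged higher, with a median of 0.095. Cd36, a scavenger receptor, averaged -0.57 ± 0.29 (SE), while the scavenger receptors Stab1 and Msr1 averaged 0.43 ± 0.25 and 0.33 ± 0.33. The arms overlapped for all 10. For heme and iron recycling 8 of 11 genes averaged higher, with a median of 0.079. Hmox1, which breaks down heme, stood at 3.90, 4.68 and 4.55 on the rHuEPO arrays, against 3.48, 4.28 and 4.12 on PBS 1, PBS 2 and the untreated array, a change of 0.42 ± 0.30. Slc11a1, a metal transporter of the phagosome, had a change of 0.28 ± 0.19, and the ferritin light chain gene Ftl1 one of 0.26 ± 0.19. Ftl1 alone of this list had arms that did not overlap, being higher on every rHuEPO array, as were 5.01% of all genes.

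In the list of island adhesion partners, which is not limited to erythroblast genes, 4 of 10 tested genes averaged higher, with a median of -0.11. Itga4, the integrin chain that pairs with Itgb1 to bind Vcam1, stood at 1.00, 0.79 and 0.91 on the rHuEPO arrays, against 1.73, 1.10 and 1.79 on PBS 1, PBS 2 and the untreated array. All rHuEPO arrays were below all control arrays, as for 5.39% of all genes. The change of Itga4 was -0.64 ± 0.23 (SE; limma adjusted p = 0.890). Itga4 is also made by lymphoid and myeloid cells. Icam4, an erythroid ligand of integrins, averaged 0.37 ± 0.26 with overlapping arms, and Rb1, the retinoblastoma gene, -0.26 ± 0.19. Of 10 erythroid markers 7 averaged higher, with a median of 0.37, summing to 2051 to 2417 after rHuEPO and 2072 to 2365 in controls. Rhag, a red cell membrane protein, averaged 0.86 ± 0.22 and the erythroid factor Klf1 0.56 ± 0.26, neither past the adjusted test.

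Siglec1 is known as an interferon-induced gene, and all 10 tested interferon-stimulated genes averaged higher after rHuEPO, with a median change of 0.59. For 4 of the 10 every rHuEPO array was above every control array, as for 5.01% of all genes. Isg15, a ubiquitin-like protein, stood at 5.88, 6.32 and 6.23 on the rHuEPO arrays, against 3.95, 4.53 and 4.49 on PBS 1, PBS 2 and the untreated array. Its change was 1.82 ± 0.23 (SE), with a limma adjusted p of 0.0671. Usp18, which removes Isg15 from proteins, averaged 1.27 ± 0.23 and the transcription factor Irf7 0.78 ± 0.17. The list as a whole was highest on rHuEPO 2, with a median of 0.90 around each gene's mean, against 0.078 on rHuEPO 1 and 0.12 on rHuEPO 3, and Siglec1 was also highest there. Summed interferon-stimulated signals spanned 131 to 188 after rHuEPO and 75.3 to 87.5 in controls. Their part in the change of Siglec1 was not tested.

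Lists of other cells that the marrow can hold had median changes between -0.23 and 0.19, apart from the erythroid list at 0.37. Stroma and endothelium, which also make Vcam1, had 4 of 9 tested genes above 0 and a median of -0.19, with -1.18 on slide 1 and 0.37 on slide 2. Vcam1 had the same signs on the slides. Summed stromal and endothelial signals spanned 31.3 to 51.1 after rHuEPO and 25.5 to 57.0 in controls. Tek, an endothelial receptor, was well above background on 0 of the 6 arrays. Eosinophil markers, relevant to Adgre1, had 2 of 6 above 0 and a median of -0.17. Monocyte markers had 6 of 12 above 0 and a median of 0.001, with Nr4a1, a factor of patrolling monocytes, at 0.62 ± 0.22 (SE). The medians were -0.075 over 7 dendritic cell genes, -0.011 over 9 neutrophil genes, -0.23 over 7 B cell genes and 0.19 over 7 T and NK cell genes. No gene of these lists passed the test. Their part in the changes of Vcam1 and Adgre1 was not tested.

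The likeness of other genes to the C1q average and to Siglec1 was measured as the root mean square difference of values over the 6 arrays, after each gene's mean was taken away, among 10914 named genes. Nearest to the C1q average were Arv1 at 0.053, Ddx18 at 0.060 and Brix1 at 0.082. All 3 were lowest on PBS 1, at -0.60, -0.62 and -0.63. Among the members Spic was nearest after the chains themselves, at 0.16, and Timd4 and Cd163 were farthest, both at 0.55. Nearest to Siglec1 were Prss12 at 0.11, Pdgfc at 0.22 and Ncs1 at 0.23, against 0.28 for C1qa, the nearest member. Prss12 stood at 0.19, 0.75 and 0.19 around its mean on the rHuEPO arrays, against -1.15, 0.070 and -0.053 on PBS 1, PBS 2 and the untreated array. These likenesses rest on 6 arrays that share the low PBS 1 and are a description only.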

How the data were processed

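The samples were total RNA of whole femur marrow cells, labelled with Cy3 on 1-colour Agilent arrays. The authors deposited each array's scanner output, whose processed signal is a linear intensity after Feature Extraction's background handling, per the file headers. They also deposited a value table on a log2 scale. Set against the scanner values it matched log2 processed signal with slopes between 0.999 and 1.00, and the medians of its columns ran between -0.10 and 0.12. No source used here states its centring, but its values match centring on each probe's median.

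The log2 processed signal minus each array's 75th percentile was used without control spots (1639 an array) and outlier spots. No gene spot was saturated. Probes were named by matching accessions to RefSeq (GRCm38.p6), which gave 26682 of 41174 probes a symbol (64.8%). A probe was tested if 3 or more of the 6 arrays had it well above background, which kept 19590, and the brightest tested probe stood for a gene, giving 14853 genes. For the bound of Timd4, a probe not well above background was set at the higher of its own signal and the array's lowest signal well above background. limma 3.58.1 (R 4.3.3) compared 3 rHuEPO with 3 control arrays, two-sided, with a threshold of 0.05 after Benjamini-Hochberg adjustment, and was tested on simulated data. There it recovered 24% of 2-fold and 96% of 4-fold changes, with 6 false calls. The largest member change, that of Siglec1, was 1.68-fold, so changes of the members' size could be missed. The number of arrays limits the precision.

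Named were all 10 members, from each list up to 3 tested genes with the smallest unadjusted p, and the 3 genes nearest in pattern to the C1q average and to Siglec1. One gene that this rule selects is not reported here. Vsig4 and Tek were named for lacking signal, after their values were seen. The members and lists were chosen with earlier results of these data known. The lists were tissue macrophage identity, uptake of dying cells, heme and iron recycling, adhesion partners, monocytes, dendritic cells, stroma and endothelium, eosinophils, neutrophils, erythroid cells, B cells, T and NK cells and interferon-stimulated genes. Alternatives covered background correction, scaling, probe filters and choice, controls, blocks, weights and single arrays. For the normexp alternative, median signals were used, and 15 spots of PBS 2, whose local background exceeded their signal, were given that array's median background, a choice made after seeing the data.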

Additional observations from a re-analysis of the deposited data

How the results depend on the processing

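No member passed the adjusted test under any of the 20 alternatives. These are not all distinct, since PBS arrays as the only controls gave the same values as leaving out the untreated array. Slide as a block and the intensity trend left the member changes as they were and altered only their errors. The median change of the members stayed above 0 throughout, between 0.18 (without PBS 1) and 0.52 (without PBS 2). It was 0.32 with normexp, 0.40 with quantile scaling, 0.50 with median scaling, where the median of all genes was 0.060, and 0.35 with array weights. Slide 2 alone, added after seeing the data, gave 0.52. Vcam1 reversed to -0.047 with normexp, -0.0072 with quantile scaling, -0.13 without PBS 1 and -0.0072 without PBS 2. The other members kept their direction in every alternative that tested them, though nothing is read from this for Timd4. Siglec1 ranged from 0.27 (normexp) to 0.98 (slide 2 alone), Cd163 from 0.19 to 0.90, C1qb from 0.087 to 0.60 and Timd4 from -0.63 to -0.12. Requiring signal well above background on all 6 arrays left 8 members, without Siglec1 and Timd4. The count of members higher on every rHuEPO array was 1 to 6 over the alternatives, and of those lower 0 to 2. The 6 came from slide 2 alone, where fewer arrays make full separation easier. Shares of all genes were counted only for the main setting, at 5.01% higher and 5.39% lower. Nothing is therefore read from the counts of the alternatives. By the looser flag of a positive and significant signal all 14 member probes were detected on all 6 arrays, against 10 that were well above background. The count of genes called over the whole array was 10, against 27 with array weights, 1 with no filter on dim probes, 5 with the filter on all 6 arrays, 3 with PBS arrays as the only controls, 3 on slide 2 alone and 1 to 6 when 1 array was left out. Whether replicate numbers pair the samples could not be told. Deviations of same-numbered PBS and rHuEPO arrays correlated at -0.071 and -0.16. With only 2 PBS arrays these deviations mirror each other, so different-numbered arrays must show the same size with the opposite sign. With the replicate block 0 members and 1 gene in all were called, with a member median of 0.30.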
